A study of Homo sapiens with 8 samples.

Results

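The miR-181 family was described across 2 HER2-positive breast cancer cell lines, BT474 and SKBR3, grown with the anti-HER2 antibody trastuzumab or with its vehicle PBS. The members were the 4 miRNAs hsa-miR-181a-5p, hsa-miR-181b-5p, hsa-miR-181c-5p and hsa-miR-181d, picked by name from the 2006 human miRNAs on the array, and all 4 were present. They were picked because their signals had already been seen to differ between lines and treatments, so their own levels and differences are given as a description and without p-values. BT474 is labelled ER+, PR+ and HER2+, and SKBR3 is labelled ER-, PR+ and HER2+, while the study's methods call SKBR3 PR-. Cells of each line received trastuzumab at 6 µg/mL or PBS for 144 hours, and every group carried 2 labelled replicates. The file labelled SKBR3 PBS replicate 1 held the same values and the same slide position as BT474 PBS replicate 1, so 7 distinct arrays remained of 8 and SKBR3 PBS was represented by replicate 2 alone.

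A miRNA is a short RNA cut from a hairpin precursor, and it binds messenger RNAs chiefly through its seed, the bases 2 to 8 counted from the 5′ end. Members of a family share that seed and can therefore bind many of the same messages. The miR-181 family is best known from lymphocyte development, where miR-181a tunes the sensitivity of the T cell receptor, and it is expressed in many epithelial tissues as well. Its members come from 3 clusters of hairpins, so a level measured for miR-181a or miR-181b can stem from either of 2 loci, whereas miR-181c and miR-181d have 1 hairpin each.

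The mature sequences are shown because the members lie so close to each other that each probe set has to tell apart RNAs with very few different bases. All 4 were matched by name to RefSeq (GRCh38.p14), where the array's hsa-miR-181d is called hsa-miR-181d-5p. Capitals mark the seed.
hsa-miR-181a-5p: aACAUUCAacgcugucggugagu
hsa-miR-181b-5p: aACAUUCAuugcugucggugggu
hsa-miR-181c-5p: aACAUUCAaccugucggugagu
hsa-miR-181d: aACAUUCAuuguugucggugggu
The seed was the same in all 4. Counted from 1 at the 5′ end, miR-181a-5p and miR-181b-5p differed at 3 bases, A9U, C10U and A21G, with the base of miR-181a-5p written first. miR-181d was 1 substitution away from miR-181b-5p, C12U. miR-181c-5p was 1 base shorter than miR-181a-5p and is obtained from it by removing base 11. Each member of the c/d locus thus had its nearest relative among the a/b members, while miR-181c-5p and miR-181d were 5 base changes apart. The only other miRNA on the array with this seed was hsa-miR-4262 (gACAUUCAgacuaccug), which was detected on none of the 7 arrays.

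In GRCh38.p14 the hairpins MIR181A1 (chr1:198859044-198859153, minus strand) and MIR181B1 (chr1:198858873-198858982, minus strand) are 61 bases apart inside the long non-coding host gene MIR181A1HG. The second pair, MIR181A2 (chr9:124692442-124692551, plus strand) and MIR181B2 (chr9:124693710-124693798), lies in the host gene MIR181A2HG and also within the span of the coding gene NR6A1. MIR181C (chr19:13874699-13874808, plus strand) and MIR181D (chr19:13874875-13875011, plus strand) are 66 bases apart in 19p13, within the span that RefSeq gives to NANOS3. The table used gives gene spans only, so exon and intron were not told apart.

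Each array reported between 201 and 256 of the 2006 miRNAs as detected, and 173 were detected on all 7. The signal summed over detected miRNAs was lower in SKBR3 (246495 to 320578) than in BT474 (446651 to 606660). All 7 arrays came from 1 slide and 1 scan. Every PBS array sat in slide row 2 and every trastuzumab array in slide row 1, so treatment and row cannot be told apart. BT474 arrays sat in slide columns 1 and 2 and SKBR3 arrays in columns 3 and 4, so line and column cannot be told apart either. miR-200c-3p and miR-141-3p, which mark epithelial cells, were detected on every array, and the 4 other epithelial breast markers on BT474 arrays only. Of 16 markers of blood, endothelium, fibroblasts, muscle and liver, 13 were detected on no array, and miR-451a, miR-126-3p and miR-1 were seen on BT474 arrays alone. The signal summed over the 6 epithelial markers was 29911 to 39348 in BT474 and 12720 to 17623 in SKBR3, and that of the 3 striated muscle markers 127 to 382 in BT474, all of it from miR-1, and 0 in SKBR3. These move with the line, as do miR-181a-5p and miR-181b-5p, and their part in the line differences was not tested. In bulk RNA of a culture, fewer cells with a miRNA and less of it per cell cannot be told apart.

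miR-181a-5p was higher in BT474 than in SKBR3 under either treatment. Its signal, summed by the scanner software over the probes of the miRNA and not yet scaled between arrays, was 2091 and 2537 on the BT474 PBS arrays and 3373 and 4030 on the BT474 trastuzumab arrays. In SKBR3 it was 732 on the PBS array and 1114 and 1010 on the trastuzumab arrays. The BT474 and SKBR3 values did not overlap, but unscaled signals were higher in BT474 in general (median log2 difference of all miRNAs tested 0.86). The share of all miRNAs without such an overlap was not counted. After quantile scaling, which gives arrays the same distribution and so depends on rank alone, the mean log2 signal was 11.29 in BT474 with trastuzumab, 11.06 in BT474 with PBS, 10.65 in SKBR3 with trastuzumab and 10.64 in SKBR3 with PBS. The last 2 differed by less than the SD of the SKBR3 trastuzumab arrays (0.023). Both arrays of each BT474 group gave miR-181a-5p the same rank, 48 with PBS and 44 with trastuzumab, so these groups show no spread on the scaled values.

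miR-181b-5p followed the same order between the lines. Its unscaled signal was 778 and 998 in BT474 with PBS, 1028 and 1298 in BT474 with trastuzumab, 244 in SKBR3 with PBS, and 357 and 325 in SKBR3 with trastuzumab. Again no SKBR3 array reached a BT474 array, on signals that were brighter in BT474 in general. On the scaled log2 values the group means were 9.64 ± 0.05 (SD, n = 2) in BT474 with PBS, 9.70 in BT474 with trastuzumab, 8.95 in SKBR3 with PBS (1 array) and 8.93 ± 0.02 (SD, n = 2) in SKBR3 with trastuzumab. Within SKBR3 the PBS array tied with 1 of the 2 trastuzumab arrays.

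miR-181d, from the 19p13 locus, separated the treatments in both lines. Its unscaled signal was 102 and 186 on the BT474 PBS arrays against 307 and 566 on the BT474 trastuzumab arrays. In SKBR3 it was 76.2 with PBS against 384 and 362 with trastuzumab. The software's own error on these signals ran from 15.4 to 49.0. The treated and untreated arrays of a line did not overlap, which can occur by chance with so few arrays. The share of all miRNAs that separated in this way was not counted. Among the 2006 miRNAs of an array, miR-181d moved from rank 198 and 171 in BT474 with PBS to 136 and 122 with trastuzumab, and from rank 152 to 100 and 99 in SKBR3. The scaled log2 means were, from high to low, 9.05 ± 0.02 (SD, n = 2) in SKBR3 with trastuzumab, 8.27 ± 0.32 in BT474 with trastuzumab, 7.57 in SKBR3 with PBS and 6.72 ± 0.53 in BT474 with PBS. Without scaling, the trastuzumab arrays of the 2 lines overlapped and the SKBR3 PBS array was the lowest, so the order of the lines for miR-181d rests on the scaling.

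miR-181c-5p, the neighbour of miR-181d, was reported as detected on the 2 BT474 trastuzumab arrays only. Its unscaled signal there was 67.0 and 90.3, with software errors of 16.6 and 20.0. The BT474 PBS and SKBR3 arrays listed it as not detected. Of all 2006 miRNAs, 3 had this detection pattern.

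**Figure D1:**
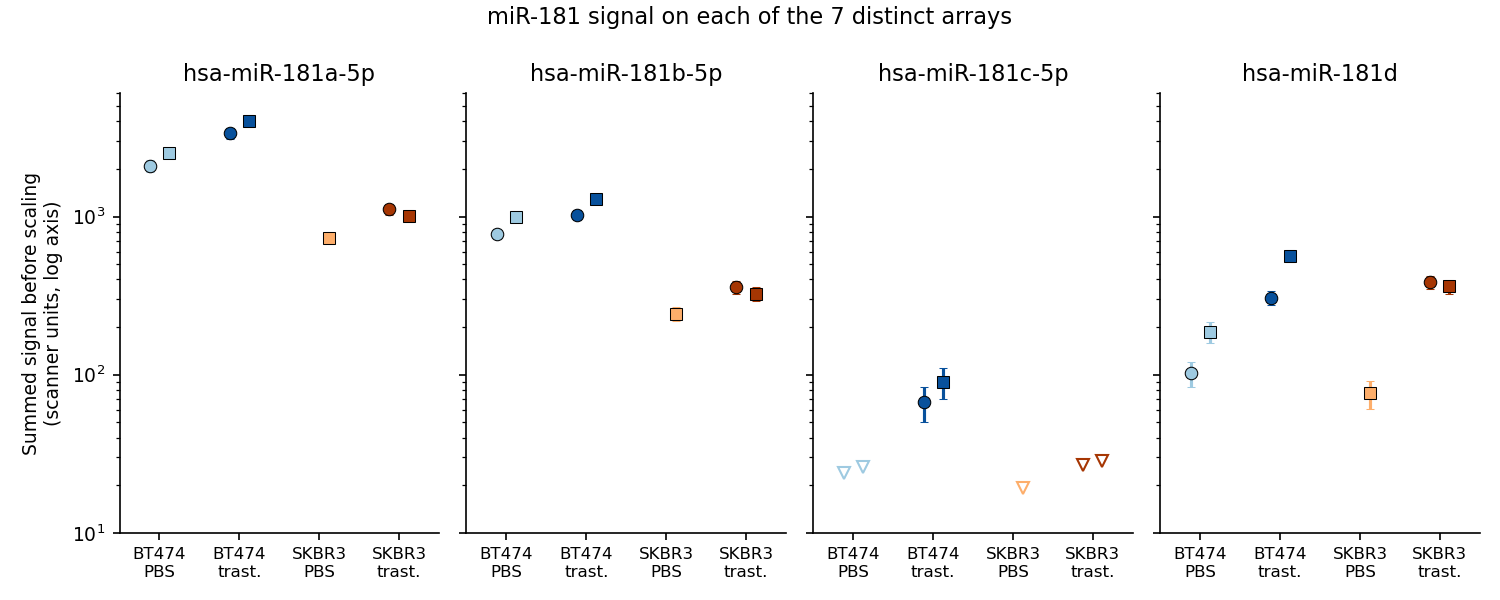
Summed signal of each member before scaling (log axis, scanner units) on the 7 distinct arrays, by line and treatment. Circles are replicate 1, squares replicate 2, bars the software's error, and open triangles mark the lowest signal detected on an array where the member was not detected. miR-181a-5p and miR-181b-5p are highest in BT474, and the miR-181d arrays with trastuzumab lie above the PBS arrays of the same line.

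The first comparison asked which miRNAs responded to trastuzumab in BT474. Trastuzumab arrays were higher than PBS arrays by 1.54 ± 0.37 on the log2 scale (SE, n = 2 against 2) for miR-181d, or 2.91-fold. For miR-181a-5p the difference was 0.23 ± 0.05 and for miR-181b-5p 0.06 ± 0.06. That of miR-181b-5p turned to -0.06 with the 75th percentile scaling, which sets equal on all arrays that percentile of the miRNAs every array detected. For miR-181c-5p no fold is taken from the summed signal, which was not detected with PBS. Its fitted difference of 2.36 depends on the floor of 10 that replaced lower signals, and the mean over its spots, which have a value on every array, differed by 0.87.

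By the study's thresholds, a p under 0.05 without adjustment together with more than a 2-fold difference, 2 of the 4 members (miR-181c-5p and miR-181d) were higher and 0 lower in BT474. Of the 285 miRNAs tested, 7.02% were higher and 7.02% lower at these thresholds. Because these differences served to choose the members, nothing is read from that count. The median difference was 0.88 over the 4 members and 0.00 over all miRNAs tested. With normexp background correction miR-181d differed by 0.73, below a fold of 2, and miR-181c-5p by 0.33. That setting added an offset of 50 to the spot signals, which makes log2 differences of dim spots smaller. Of all miRNAs, 20 were higher and 20 lower, which became 13 and 28 with the 75th percentile scaling and 26 and 13 without scaling, where the median of all miRNAs tested moved to -0.22 and 0.22.

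In SKBR3 the same question could be asked of 2 trastuzumab arrays against 1 PBS array. miR-181d was higher with trastuzumab by 1.48 ± 0.03 on the log2 scale (SE), or 2.80-fold, where the SE assumes that the lone PBS array varies like the trastuzumab arrays. On that PBS array the signal was 76.2 with a software error of 15.4, and 10 of its 30 spots were well above background. The SE may therefore be too small. miR-181a-5p differed by 0.02 ± 0.03 and miR-181b-5p by -0.02 ± 0.03. Both of these became positive, at 0.36 and 0.31, with scaling to the 75th percentile, which also moved the median of all miRNAs from -0.09 to 0.21. miR-181c-5p had no value in this comparison, since all 3 arrays were below detection. With the copied file taken as SKBR3 PBS replicate 1, miR-181d differed by 2.08, miR-181a-5p by -0.19 and miR-181b-5p by -0.34.

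Of the 3 members tested in SKBR3, 1 was past both thresholds and higher, miR-181d. The share of higher calls among the 227 miRNAs tested was 7.93%, and that of lower calls 3.52%. Again nothing is read from this count. The 18 higher and 8 lower calls became 31 and 8 with the 75th percentile scaling and 31 and 6 without scaling. The medians were 0.02 over these members and -0.09 over all tested. miR-181d was 1 of 8 miRNAs that were higher in both lines, which is 40.0% of the 20 higher in BT474 and 44.4% of the 18 higher in SKBR3.

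The response of miR-181d was 0.06 ± 0.51 larger in BT474 than in SKBR3 on the log2 scale (SE), an error wide enough to hold a difference of either sign. The same difference was 0.21 ± 0.06 for miR-181a-5p and 0.08 ± 0.07 for miR-181b-5p. All 3 turned with the 75th percentile scaling, to -0.97 for miR-181d, -0.13 for miR-181a-5p and -0.37 for miR-181b-5p. Without scaling they were -0.69, 0.14 and -0.09, so no direction is given for the difference between the lines' responses.

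Because miR-181d and miR-181b-5p are 1 base apart, their responses were set side by side on the same arrays, where any scaling by 1 factor per array cancels. With trastuzumab, miR-181d moved up relative to miR-181b-5p by 1.48 in BT474 and 1.50 in SKBR3 on the scaled log2 values. On the signals as measured the figures were 1.21 and 1.81. miR-181b-5p and miR-181a-5p, in contrast, moved against each other by -0.16 in BT474 and -0.03 in SKBR3 on the scaled values.

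**Figure D2:**
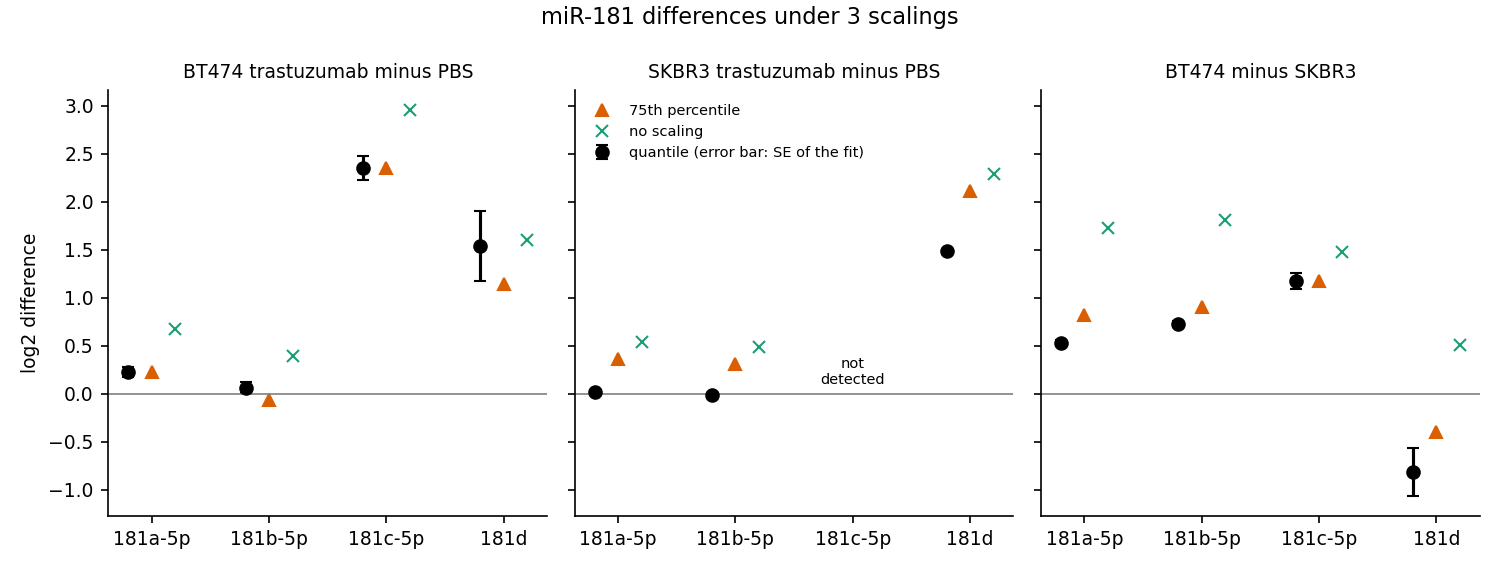
log2 difference of each member in the 3 comparisons under quantile scaling (black, bars are the SE of the limma fit), scaling to the 75th percentile (triangles) and no scaling (crosses). miR-181d is positive with trastuzumab in both lines under all 3, while its BT474 minus SKBR3 difference is negative under 2 scalings and 0.51 without scaling.

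The next comparison set BT474 against SKBR3 over both treatments. miR-181a-5p was higher in BT474 by 0.53 ± 0.03 on the log2 scale (SE, 4 arrays against 3) and miR-181b-5p by 0.73 ± 0.04. Counted from the highest of the 305 differences tested, these stood at ranks 108 and 91. miR-181d was lower in BT474 by 0.82 ± 0.25 (log2 difference -0.82), which became -0.40 with scaling to the 75th percentile and 0.51, higher in BT474, without scaling. Without scaling the median of all miRNAs tested was itself 0.86 higher in BT474, against 0.00 with quantile scaling. Relative to miR-181b-5p on the same arrays, miR-181d was lower in BT474 by a log2 difference of -1.54 on the scaled and -1.30 on the unscaled signals.

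Within PBS alone, BT474 minus SKBR3 was 0.42 for miR-181a-5p, 0.69 for miR-181b-5p and -0.84 for miR-181d. Within trastuzumab alone it was 0.63, 0.77 and -0.79. The 3 members therefore kept their direction in each treatment. For miR-181c-5p no fold between the lines is given, since the lowest scaled signals detected on the SKBR3 trastuzumab arrays were on average no lower than its signal on the BT474 trastuzumab arrays. Its fitted difference of 1.18 was set by the floor and came from the trastuzumab arrays (2.36), with 0 in PBS. In this comparison 1 of 4 members was past both thresholds and higher in BT474 (miR-181c-5p) and 0 were lower, where 24.9% of the 305 miRNAs tested were higher and 21.3% lower. These 76 higher and 65 lower calls became 86 and 40 with the 75th percentile scaling and 132 and 16 without scaling. The members' median was 0.63, against 0.00 over all tested.

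**Figure D3:**
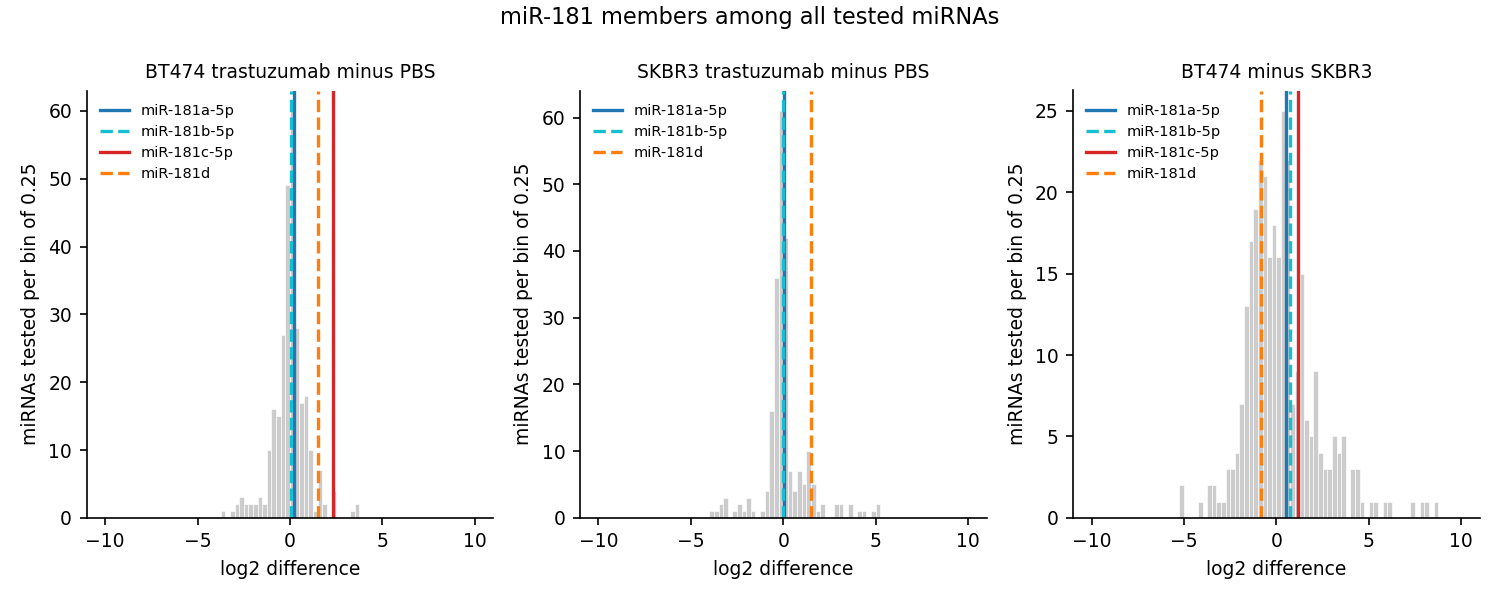
Histograms of the log2 differences of all miRNAs tested in each comparison (285, 227 and 305, bins of 0.25), with lines at the members. miR-181a-5p and miR-181b-5p lie near 0 in both treatment comparisons, and miR-181d lies at 1.54 in BT474 and 1.48 in SKBR3.

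As a summary of the loci, the mean log2 signal of the a/b members minus that of the c/d members was computed on each array. The level of this gap compares different probes and has no meaning, so only its changes are read. With trastuzumab it fell by 1.80 in BT474 and by 0.74 in SKBR3. Between the lines it was 0.45 wider in BT474, a value that changed sign to -0.083 within trastuzumab alone. miR-181c-5p enters this gap at the floor on 5 of the 7 arrays, and in SKBR3 all of the change came from miR-181d. With miR-181c-5p left out, the gap went from 3.98 and 3.26 with PBS to 2.45 and 2.01 with trastuzumab in BT474. In SKBR3 it went from 2.23 to 0.74 on both trastuzumab arrays. The falls of 1.80 and 0.74 are therefore not compared between the lines.

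Every member was covered by 2 probes of 15 spots each, and no spot of any member was saturated. All 30 spots of miR-181a-5p were well above background on all 7 arrays, as were 25 to 30 of those of miR-181b-5p. For miR-181d the number was 13 and 18 in BT474 with PBS, 27 and 30 in BT474 with trastuzumab, 10 in SKBR3 with PBS, and 30 and 26 in SKBR3 with trastuzumab. For miR-181c-5p it was 2 and 1, then 5 and 12 in BT474, and at most 1 on the SKBR3 arrays. Measurements of miR-181c-5p therefore rest on few spots.

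The 2 probes of miR-181d moved the same way. The mean processed signal per spot of the first was 222 and 316 in BT474 with PBS, 467 and 906 in BT474 with trastuzumab, 150 in SKBR3 with PBS, and 681 and 551 in SKBR3 with trastuzumab. The second gave 481 and 562, then 982 and 1735, then 359, then 1114 and 1192. Neither probe showed an overlap between PBS and trastuzumab arrays of a line, again without a count over all probes. After quantile scaling over all probes, trastuzumab minus PBS was 1.22 and 1.19 for the 2 probes in BT474, and 2.02 and 1.40 in SKBR3, on the log2 scale.

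The probes of miR-181c-5p carried signal also where the miRNA was called not detected. In BT474 with PBS the first probe had a mean of 72.0 and 127 per spot and the second 233 and 250, while the trastuzumab arrays had 167 and 262 for the first and 316 and 426 for the second. On the SKBR3 arrays both probes lay between -12.2 and 37.3. The 1000 negative control spots of an array had means of 38.2 to 67.3 with SDs of 92.2 to 130 between spots, so the SKBR3 values were at the level of the controls. The controls were brighter on BT474 trastuzumab arrays (62.3 and 67.3) than on BT474 PBS arrays (38.2 and 38.3), but in SKBR3 they were not (56.4 with PBS, 53.5 and 47.4 with trastuzumab). The part of this in the miR-181c-5p difference was not tested. With the spots averaged in place of the software's sum, BT474 minus SKBR3 was 3.89 for miR-181c-5p and the BT474 treatment difference 0.87. miR-181a-5p, from which miR-181c-5p differs by 1 base, was also brighter in BT474, and whether its RNA adds to the miR-181c-5p probes was not tested.

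**Figure D4:**
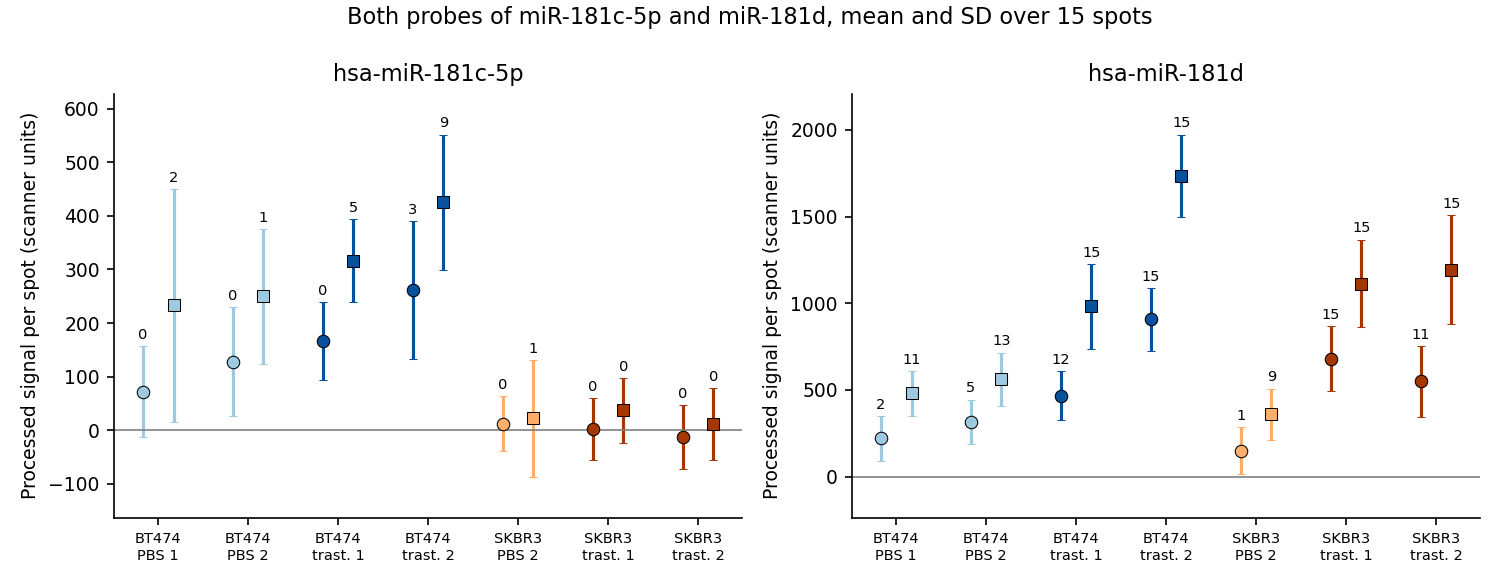
Mean processed signal per spot of the first (circles) and second (squares) probe of miR-181c-5p and miR-181d on each array, in scanner units. Bars are the SD over 15 spots and the number above each bar is how many of the 15 were well above background. Both miR-181d probes are higher with trastuzumab in each line, and both miR-181c-5p probes lie near 0 in SKBR3.

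The log2 values that the authors deposited, which were normalized within each line, gave trastuzumab minus PBS of 1.20 and 1.25 for the miR-181d probes in BT474 and 1.37 and 1.80 in SKBR3. The copied file labelled SKBR3 PBS replicate 1 shared the SKBR3 median of 5.29 there. The SKBR3 values were thus normalized together with a copy of a BT474 array, which these differences leave out. For miR-181c-5p in BT474 they gave 0.61 and 1.09. The means over both probes were 0.35 for miR-181a-5p and 0.18 for miR-181b-5p in BT474, and 0.11 and 0.04 in SKBR3.

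The other arms of the hairpins could in principle tell the loci of miR-181a and miR-181b apart. Of the 4 on the array, hsa-miR-181a-2-3p, hsa-miR-181b-3p and hsa-miR-181c-3p were detected on none of the 7 arrays. hsa-miR-181a-3p, which comes from MIR181A1 on chromosome 1, was detected on BT474 PBS replicate 2 (54.6) and BT474 trastuzumab replicate 2 (56.0) and on no SKBR3 array. No difference was detectable with trastuzumab in BT474 (log2 difference -0.32 ± 0.66, adjusted p = 0.766 by limma, with the sign turned at 0.018 without scaling) or between the lines (0.53 ± 0.45, adjusted p = 0.357 by limma). Which locus gave the miR-181a-5p and miR-181b-5p signals was therefore not resolved here.

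The 19p13 locus lies near the cluster of MIR23A, MIR27A and MIR24-2, 38039 bases away from MIR181C. Within 1 Mb of the miR-181 hairpins RefSeq lists 7 other miRNA genes, all on chromosome 19, and 8 of their mature forms were on the array. miR-23a-3p, miR-24-3p and miR-27a-3p were detected on all 7 arrays and the other 5 on none. With trastuzumab in BT474 they differed by 0.26 ± 0.06, 0.35 ± 0.10 and 0.34 ± 0.07 on the log2 scale, with adjusted p = 0.109, 0.118 and 0.0813 by limma. With normexp background correction miR-27a-3p passed at an adjusted p of 0.0117 by limma. In SKBR3 the differences were 0.15 ± 0.02, 0.17 ± 0.04 and 0.12 ± 0.08, with adjusted p = 0.126, 0.240 and 0.501 by limma. On the quantile-scaled values of all miRNAs tested, none of these 6 differences passed an adjusted p of 0.05 or a fold of 2, where 14.4% of all miRNAs tested in BT474 and 6.61% in SKBR3 passed that adjusted p. With the replicate number as a block, the 41 miRNAs behind the BT474 share became 0, while 32 were past the study's thresholds without adjustment. Between the lines all 3 were higher in BT474, by 0.20 ± 0.04 (adjusted p = 0.0139 by limma), 0.68 ± 0.06 (adjusted p = 0.00172) and 0.40 ± 0.05 (adjusted p = 0.00405), while miR-181d was lower there on the same scale. None of the 3 passed with the copied file kept as SKBR3 PBS replicate 1 (adjusted p = 0.303, 0.0688 and 0.0899 by limma). Of all miRNAs tested between the lines, 68.5% passed an adjusted p of 0.05. miR-24-3p can also stem from a second hairpin on another chromosome.

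The miRNAs most like each member were sought among the 172 others detected on all 7 arrays, by the root mean square difference of the log2 signals after each miRNA was centred on its own mean. For miR-181a-5p they were let-7g-5p (0.085), let-7c (0.086) and miR-27a-3p (0.10), and miR-181b-5p came at place 7 (0.12). For miR-181b-5p they were miR-148b-3p (0.028), miR-21-5p (0.078) and miR-15a-5p (0.086), with miR-181a-5p at place 5. No miRNA came as near to miR-181d as these. The residual SD within groups was also larger for miR-181d (0.36) than for miR-181a-5p (0.013) and miR-181b-5p (0.030), which by itself widens this distance. For miR-181d the closest were miR-3656 (0.33), miR-1268b (0.33) and miR-4701-3p (0.33). miR-181a-5p and miR-181b-5p stood only at places 112 and 130. These 3 miRNAs were higher with trastuzumab by 1.09, 1.04 and 0.89 in BT474 and by 0.89, 1.18 and 1.43 in SKBR3. They were lower in BT474 than in SKBR3 (-1.05, -1.12 and -0.77), all on the scaled log2 values. Because they were chosen for likeness to miR-181d on the same arrays, nothing further is read from these differences. miR-181c-5p was not ranked, being detected on 2 arrays.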

How the data were processed

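Total RNA (100 ng, Cy3-labelled) was hybridized to an Agilent Release 19.0 human miRNA array. Per the file headers, Feature Extraction 11.5.1.1 wrote the deposited intensity values: processed, median and background signals per spot and, per miRNA, a summed signal with its error and detection call. The authors deposited quantile-normalized log2 values per probe too (BRB Array Tools), with separate medians for the lines (5.36 and 5.29), so they were compared within a line only. Summed signals of the 7 distinct arrays were quantile normalized, signals under 10 were set to 10, and log2 values were tested with limma 3.58.1 in R 4.3.3 over all miRNAs above the floor on any array of the fit, with Benjamini-Hochberg adjustment. Treatments were fitted within a line, and lines from all 7 arrays. The study's methods call the replicates biological, and the small number of arrays limits precision. SKBR3 miRNAs at the floor on both trastuzumab arrays had no spread of their own there, and limma took theirs from the others. Same-numbered arrays deviated together only weakly (correlations of 0.30 between the BT474 groups, and 0.15 and 0.12 between these and SKBR3 trastuzumab). They shared a slide column within a line, so fits with the replicate number as a block are given where they change a count. Fits were tested on simulated data. The members and lists were chosen with earlier results of these data known. Named miRNAs were the members, their other arms, seed partners, detected neighbours within 1 Mb and the 3 miRNAs most like each member. Alternatives were other scalings, floors, filters, background corrections, uses of the copied file, a plain t-test with pooled variance and arrays left out.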

Additional observations from a re-analysis of the deposited data

How the results depend on the processing

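Across 11 alternatives with a value, miR-181d was higher with trastuzumab in SKBR3 by 1.06 to 2.29 (log2), and across 14 in BT474 by 0.73 to 1.95. miR-181a-5p and miR-181b-5p stayed higher in BT474 than in SKBR3 across 17 alternatives each (0.42 to 1.73 and 0.55 to 1.81). Calls below follow the study's thresholds, except that the difference in response was called at an adjusted p under 0.05 without a fold limit. Its counts are therefore not comparable with the others. The counts of called miRNAs were 40 for BT474 treatment, 26 for SKBR3 treatment, 141 between the lines and 49 for the difference in response. Keeping miRNAs detected on every array gave 20, 11, 66 and 23, and fewer miRNAs were tested. Averaged spots gave 140, 193, 288 and 76. normexp gave 2, 9 and 48 for the first 3. The copied file as SKBR3 PBS replicate 1 gave 14 for SKBR3, 87 between the lines and 5 for the difference, and no scaling gave 25 for the last. The deposited values gave 85 and 119 for the treatments, and the methods' t-test 26 and 11 (3 and 0 after Benjamini-Hochberg). Leaving out 1 array gave 29 (without SKBR3 trastuzumab replicate 1) to 74 (without BT474 trastuzumab replicate 2) for the difference.

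The a/b minus c/d gap changed with trastuzumab in BT474 by -3.46 with a floor of 1, -0.92 with averaged spots, -0.24 with normexp, -0.77 with the deposited values, -1.60 without the copied array and -1.93 to -1.60 with 1 array left out. In SKBR3 it changed by -0.999 with averaged spots, -0.57 with normexp and -1.31 with the copied file. Between the lines (0.45) it was 0.98 within PBS, 0.77 without scaling and 0.14 with the copied file, and it reversed to -0.083 within trastuzumab, -0.38 with a floor of 1 and -0.99 with averaged spots. The floor sets the miR-181c-5p values in this gap. The cause of the other changes was not tested.

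Among the miRNAs tested, miR-181a-3p, which differed by -0.32 with trastuzumab in BT474, turned to 0.018 without scaling, 0.29 with averaged spots, 0.13 with normexp and 0.28 with the deposited values, and ran from -0.87 to 0.20 with 1 array left out. miR-24-3p turned to -0.016 in BT474 with the 75th percentile scaling and, with the copied file, to -0.082 in SKBR3, where miR-27a-3p turned to -0.0083. miR-27a-3p passed in BT474 (adjusted p by limma 0.0485 over miRNAs detected on every array, 0.0117 with normexp). Its line difference and those of miR-23a-3p and miR-24-3p stayed positive under 17 alternatives each, some of which, as above, could not move them. With the copied file they did not pass (adjusted p by limma 0.0899, 0.303 and 0.0688), nor did miR-23a-3p within PBS (0.110) or with averaged spots (0.121).

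With the replicate number as a block the counts were 32, 138 and 22 for BT474 treatment, lines and difference in response. The last was called by adjusted p alone. After adjustment the others were 0 in place of 41 for BT474 treatment and 196 in place of 209 between the lines. The block changed no call of miR-181a-3p, miR-23a-3p, miR-24-3p or miR-27a-3p in these comparisons. The SKBR3 treatment groups share only number 2, so that comparison has no blocked fit. Leaving out SKBR3 PBS replicate 2 left no SKBR3 control, and SKBR3 counts without a trastuzumab array, line differences from the deposited values and the gap over detected miRNAs gave no value. Scaling by the 75th percentile over all miRNAs was not run, since that percentile falls on undetected miRNAs.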
